A study of Mus musculus with 6 samples.

Results

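Autophagy encloses cytoplasm in a double membrane, and the growth of that membrane depends on a pair of ubiquitin-like conjugation reactions. In both, the enzyme ATG7 acts as the E1 and activates a small ubiquitin-like protein. ATG10, an E2, then passes ATG12 to ATG5, and the ATG12-ATG5 conjugate joins the scaffold ATG16L1. ATG3, the other E2, passes LC3 and GABARAP proteins (the ATG8 family) to the lipid phosphatidylethanolamine, at the site where ATG16L1 has brought the ATG12-ATG5 conjugate. The ATG4 proteases trim newly made ATG8 proteins so that they can be conjugated, and also cut them off the lipid again. The genes described here are the 10 that encode this machinery in the mouse: Atg7, Atg3, Atg10, Atg12, Atg5, Atg16l1, Atg4a, Atg4b, Atg4c and Atg4d. They were chosen by name from the 19060 genes of the deposited count table, and all 10 were present.

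RNA was sequenced from the proximal end of the incisor in 3 control and 3 mutant samples, from mice 1 month old at induction, 1 week after tamoxifen. The mouse incisor grows throughout life from stem cells at this end. The controls were Fgfr1fl/fl (wild type in the sample labels) and the mutants Gli1-Cre;Fgfr1fl/fl, so that both groups carried the floxed receptor allele and received tamoxifen, which activated the Cre of the mutants, a CreER expressed from Gli1. The comparison asks how loss of the FGF receptor FGFR1 from Gli1+ cells, among them the mesenchymal stem cells, changes gene expression. Cre acts only in Gli1+ cells and their progeny, while the RNA came from whole tissue, so recombined and unrecombined cells were measured together, and fewer cells of a type cannot be told apart from less RNA per cell.

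The libraries were of unequal depth, from 31060222 to 32712448 counts in the control and from 5276557 to 11819576 in the mutant samples. Every mutant library was thus shallower than every control. Differences between libraries that go with depth cannot be told apart from those of genotype. Mutant 1 was the shallowest, and 30.3% of genes had 0 counts there, against 17.1 and 19.7% in mutants 2 and 3 and 3.83 to 3.96% in the controls. Fgfr1, the deleted gene, had 529, 924 and 434 CPM (edgeR's counts scaled by the upper quartile to a common library size) in controls 1 to 3 and 148, 318 and 262 CPM in mutants 1 to 3. Every mutant sample was lower than every control, with a log2 change of -1.37 (SE 0.40, edgeR adjusted p = 0.0881), and of -1.13 without mutant 1. It was -0.99 without control 2 and -0.81 after a correction of the counts for transcript length and GC content. Markers of mesenchyme, odontoblasts and dental epithelium were present in every sample, Sox2 (0 in mutants 1 and 2) excepted. The medians of the lists' log2 changes were -0.59 for 9 mesenchyme genes (4 fell past an unadjusted p of 0.05 and 1.5-fold, as did 8.92% of all genes), -0.21 for 6 odontoblast, -0.63 for 9 dental epithelium, 0.13 for 6 macrophage, -0.54 for 5 endothelium, 1.02 for 5 erythroid (2 rose, 1 fell and 1 was past an adjusted p of 0.05, edgeR) and 0.75 for 4 Schwann cell genes. The 8 skeletal muscle genes summed to 10.5, 2800 and 30.0 CPM in the controls and to 6332, 158 and 1025 CPM in the mutants (median log2 change 1.49), with Myh4 at 0 in mutant 3. Muscle RNA was thus highest in mutant 1 and, among the controls, in control 2, which were also the samples with the lowest summed level of the conjugation genes in their group. Mutant 3, with more muscle RNA than mutant 2, was not low in them. The part of muscle RNA in these levels was not tested.

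No member of the conjugation machinery passed the threshold. In edgeR's two-sided quasi-likelihood test over 15826 genes, 0 of 10 members had an unadjusted p under 0.05 with a change of over 1.5-fold, a threshold that 19.8% of all genes passed (10.9% higher and 8.92% lower in the mutants). At an adjusted p under 0.05 the count was also 0 of 10, against 6.79% of all genes. The mutant and control values of all 10 members overlapped, whereas the groups did not overlap for 30.4% of genes (14.1% with all mutants above and 16.3% with all mutants below). DESeq2 and limma also called 0 of 10 at the unadjusted threshold, which 21.2 and 21.9% of all genes passed with these tools. The median log2 change of the members was 0.12, beside -0.040 for all genes, and 7 of the estimates were above 0 and 3 below. The sign of the median depended on the scaling and tool, and the median of all genes moved as well. With total counts the members' median was -0.11 (3 above and 7 below), beside -0.30 for all genes. It was -0.068 with limma, beside -0.31, and -0.078 with the length and GC correction, beside -0.11 (4 above and 6 below in both). Without mutant 1 it was 0.30, beside -0.057. In each of these fits the members' median was above that of all genes. The 95% intervals were wide and do not show that the levels were alike: the narrowest was that of Atg3, from -0.52 to 1.01, and the widest that of Atg16l1, from -3.15 to 2.04.

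For most members mutant 1 lay on the other side of the controls from mutants 2 and 3 or apart from them. In mutant 1, 7 of the 10 members lay below all controls and 1, Atg7, above. In mutant 2, 1 lay below and 7 above, and in mutant 3 there were 3 below and 5 above. Over all genes the shares were 49.2% below and 34.9% above in mutant 1, 37.8 and 36.5% in mutant 2, and 41.7 and 34.9% in mutant 3. The summed level of the 10 members was 278, 191 and 245 CPM in the controls and 155, 311 and 302 CPM in the mutants. The mutant sums thus lay on both sides of the controls, with mutant 1 the lowest and mutants 2 and 3 the highest of the 6 samples.

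**Figure D1:**
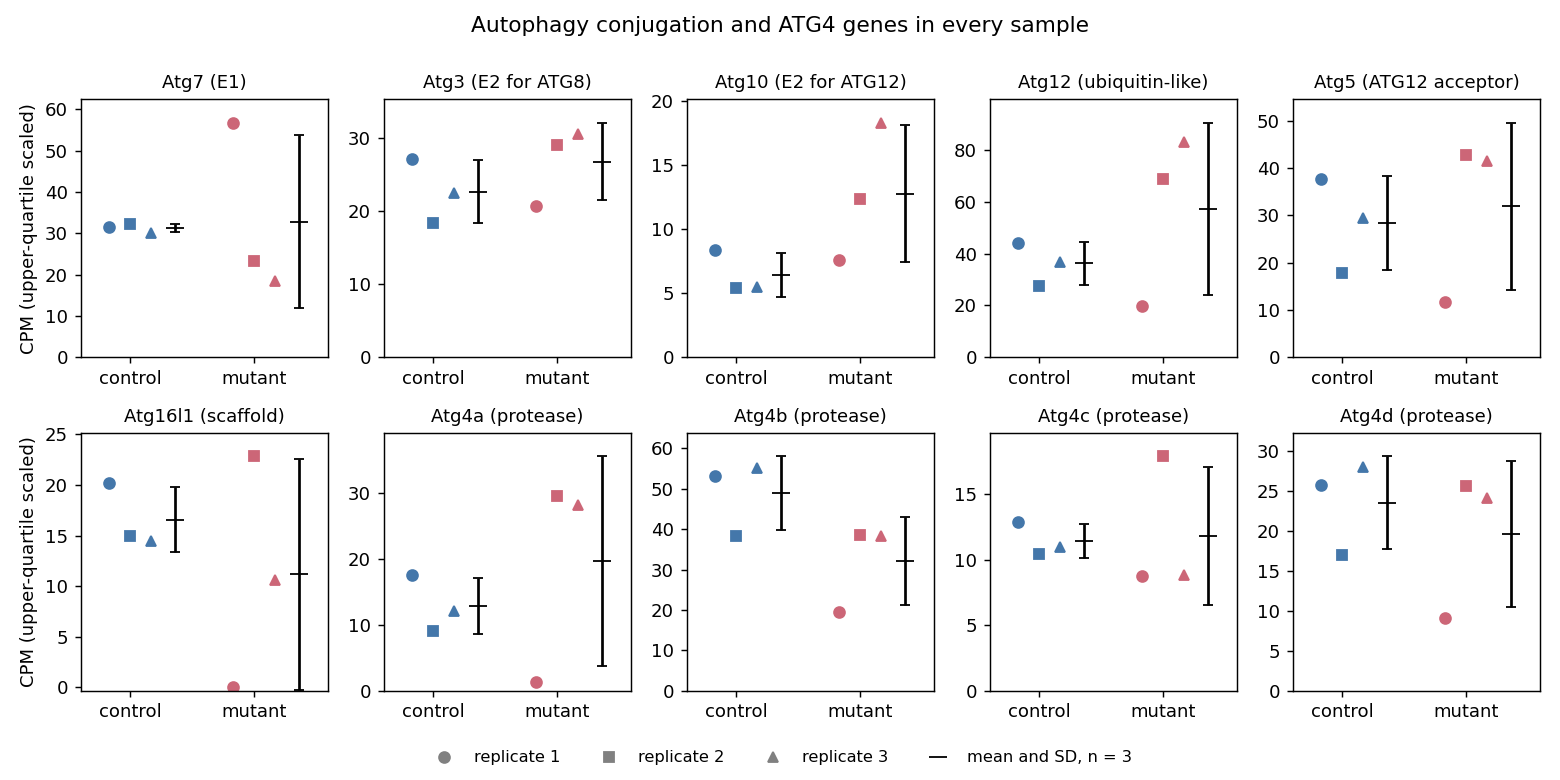
Level of each of the 10 genes in CPM after upper-quartile scaling (vertical axes from 0 or just below it, with a separate scale per gene) in 3 control (blue) and 3 mutant (red) samples, with the mean and SD of each group in black and the replicate number given by the marker. Mutant 1 (circle) is the lowest of the 6 samples for 7 genes, which include Atg12 (19.6 CPM), Atg5 (11.6) and Atg4a (1.31) and the highest for Atg7 (56.7).

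Because 1 library stood apart in these same values, the log2 change of each member is given below with and without it. Leaving out the lowest mutant of a gene raises its mutant mean and can narrow its spread. The p-values without mutant 1 are therefore descriptive. Without mutant 1 the same test called 3 of 10 members, all higher in the mutants: Atg12, Atg4a and Atg10. In that fit 26.8% of the 17227 genes tested were called (12.2% higher and 14.5% lower), so the share of members called in either direction was near the background, while 0 of 10 were called lower. None of the 3 had an adjusted p under 0.05 (edgeR). Corrected also for transcript length and GC content, the same 5 samples gave 1 member called, Atg12, with 23.2% of all genes called.

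Members with GC-rich transcripts tended to have the lower estimates. The GC content was pooled over the coding transcripts of a gene. The 4 genes at 50.8 to 54.5% (Atg4b, Atg16l1, Atg7 and Atg4d) had log2 changes of -0.60, -0.55, 0.063 and -0.25. The other 6, with a GC content of 40.3 to 44.8%, had log2 changes of 0.053 to 1.00, with Atg7 just above the lowest of them. Without mutant 1 the same 4 genes were the lowest of the 10, from -0.60 to 0.064, and the other 6 ran from 0.21 to 1.24. This is a description of 10 genes, made after their values were seen. After the correction for length and GC content of all 6 samples, under which 14.6% of all genes were called, the 4 genes ran from -0.31 to 0.31 and the other 6 from -0.27 to 0.50.

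Atg7 lies on chromosome 6 of GRCm38 (114643097 to 114860614, plus strand) and encodes the E1 that both reactions share. It had 31.4, 32.1 and 30.1 CPM in the controls and 56.7, 23.2 and 18.4 CPM in mutants 1, 2 and 3. The controls were close to each other, mutant 1 lay far above them and mutants 2 and 3 below. The log2 change was 0.063 (SE 0.44, edgeR adjusted p = 0.963). Without mutant 1 it was -0.60 (SE 0.27, unadjusted p = 0.0596, adjusted p = 0.207, edgeR). This passed the unadjusted threshold when mutant 1 was left out and the scaling was TMM (-0.69, unadjusted p = 0.0347, adjusted p = 0.144, edgeR) or total counts (-0.81, unadjusted p = 0.0289, adjusted p = 0.125, edgeR), fits in which 27.7 and 28.6% of all genes passed. It did not with the length and GC correction (-0.34, unadjusted p = 0.162, adjusted p = 0.403, edgeR). In mutant 1, Atg7 alone held 36.6% of the counts of the 10 genes, against 11.3 to 16.8% in the controls and 7.47 and 6.10% in mutants 2 and 3.

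The E2 enzymes were both measured near the level of the controls in mutant 1 and above it in mutants 2 and 3. Atg3 (chromosome 16, 45158785 to 45188538, plus strand), the E2 for the ATG8 family, had 27.2, 18.4 and 22.5 CPM in the controls and 20.7, 29.1 and 30.6 CPM in the mutants. Its log2 change was 0.24 (SE 0.33, edgeR adjusted p = 0.767), and 0.38 without mutant 1. Atg10 (chromosome 13, 90935356 to 91223968, minus strand), the E2 for ATG12, had 8.39, 5.39 and 5.49 CPM in the controls and 7.64, 12.4 and 18.3 CPM in the mutants. Its estimate was the highest of the 10 genes, a log2 change of 1.00 (SE 0.60, unadjusted p = 0.134, edgeR adjusted p = 0.416). Without mutant 1 it was 1.24 (SE 0.45, unadjusted p = 0.0263, adjusted p = 0.126, edgeR). The length and GC correction put the Atg10 estimate at -0.049 with all samples and at 0.21 without mutant 1. This correction takes out any trend with length or GC content that the mutants share, whether technical or from genotype. Which of these applies to Atg10 was not tested. The Atg10 transcript is the shortest of the 10, at 1.58 kb.

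Atg12 (chromosome 18, 46730144 to 46741580, minus strand), the ubiquitin-like protein of the first reaction, had 44.2, 27.6 and 36.9 CPM in the controls and 19.6, 68.9 and 83.1 CPM in the mutants. Mutants 2 and 3 were well above every control and mutant 1 was below every control. The log2 change was 0.67 (SE 0.49, unadjusted p = 0.208, edgeR adjusted p = 0.524), and without mutant 1 it was 1.05 (SE 0.28, unadjusted p = 0.00692, adjusted p = 0.0623, edgeR). Of the 3 genes called in the fit without mutant 1, Atg12 was the only one still past the unadjusted threshold in all 3 further fits without that sample: 0.86 with the length and GC correction (unadjusted p = 0.0270, adjusted p = 0.142, edgeR), 0.84 with total counts (unadjusted p = 0.0146, adjusted p = 0.0839, edgeR) and 0.98 with TMM (unadjusted p = 0.00817, adjusted p = 0.0640, edgeR).

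Atg5 (chromosome 10, 44268358 to 44364291, plus strand) encodes the protein to which ATG12 is joined. Its levels were 37.8, 17.9 and 29.5 CPM in the controls and 11.6, 42.8 and 41.4 CPM in the mutants, the same order of mutant samples below and above the controls as for Atg12. The log2 change was 0.18 (SE 0.52, edgeR adjusted p = 0.904), and 0.55 (SE 0.34, adjusted p = 0.358, edgeR) without mutant 1.

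Atg16l1 (chromosome 1, 87755870 to 87792428, plus strand), the scaffold that places the conjugate on the membrane, had 20.2, 14.9 and 14.5 CPM in the controls and 0, 22.9 and 10.6 CPM in the mutants. These rest on 695, 543 and 502 counts in the controls and on 0, 268 and 105 counts in the mutants. At the mean level of the controls, 75.9 counts would correspond to Atg16l1 in mutant 1, where 0 were found. Counting error alone allows up to 0.655 CPM at 0 counts, a limit that does not cover other ways of losing a gene. Such dropouts were not particular to this gene: of 7365 genes with a control mean between those of the lowest and the highest member, 625 (8.49%) had 0 counts in mutant 1, compared with 40 in mutant 2 and 93 in mutant 3. The log2 change of Atg16l1 was -0.55 (SE 1.13, edgeR adjusted p = 0.854) with mutant 1 and 0.0015 (SE 0.42) without it. A fitted change of a gene with a library at 0 depends on the model, and limma gave -2.55.

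**Figure D2:**
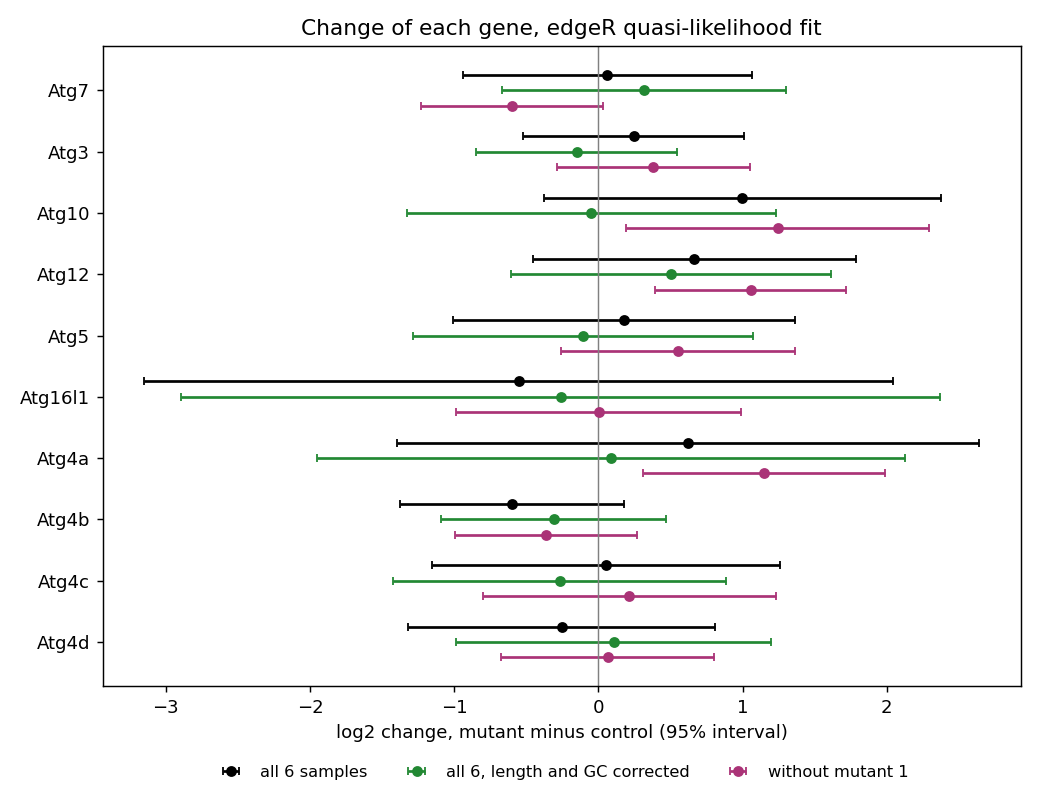
Log2 change from control to mutant of each of the 10 genes with its 95% interval, from edgeR's quasi-likelihood fit of all 6 samples (black), the same after correction for transcript length and GC content (green), and without mutant 1 (purple). The black and green intervals cross 0 for all 10 genes, and the purple intervals of Atg10, Atg12 and Atg4a lie above 0.

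Among the ATG4 proteases, Atg4b (chromosome 1, 93751500 to 93790610, plus strand) encodes the member with the broadest activity on ATG8 proteins and was the most abundant of the family in the controls. It had 53.1, 38.3 and 55.2 CPM in the controls and 19.4, 38.5 and 38.4 CPM in the mutants, so that mutants 2 and 3 sat at the lowest control. The log2 change was -0.60 (SE 0.34, unadjusted p = 0.112, edgeR adjusted p = 0.381), and -0.36 without mutant 1. It passed the unadjusted threshold only when samples were scaled by total counts (-0.84, unadjusted p = 0.0409, adjusted p = 0.195, edgeR), a scaling under which 22.7% of all genes passed and that moved the median of all genes to -0.30. Atg4b held 19.1, 20.1 and 22.5% of the counts of the 10 genes in the controls and 12.5, 12.4 and 12.7% in the mutants. That share, picked out after its values were seen and not tested, was lower in every mutant sample than in every control. Such a separation was not particular to Atg4b. The Atg4d share was also lower in every mutant, at 5.92 to 8.24% against 8.88 to 11.4% in the controls. The Atg10 share was higher in every mutant, at 3.98 to 6.07% against 2.24 to 3.01% in the controls. The log2 change of Atg4b after the length and GC correction was -0.31. The gene overlaps Thap4 on the other strand, and whether counting used strand is not given in the sources used here.

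Atg4c (chromosome 4, 99193934 to 99259787, plus strand) had 12.9, 10.4 and 11.0 CPM in the controls and 8.73, 17.9 and 8.87 CPM in the mutants. Atg4d (chromosome 9, 21265293 to 21277772, plus strand), which overlaps Kri1 on the other strand, had 25.8, 17.0 and 28.0 CPM in the controls and 9.17, 25.6 and 24.2 CPM in the mutants. Both encode proteases that are weakly active until their N terminus is cut. Their log2 changes were 0.053 (SE 0.52, edgeR adjusted p = 0.973) and -0.25 (SE 0.46, edgeR adjusted p = 0.835), and without mutant 1 they were 0.21 and 0.064. Neither gene passed a threshold in any fit tried. Kri1 had 10.5, 13.0 and 10.1 CPM in the controls and 2.62, 9.05 and 3.83 CPM in the mutants. Its log2 change was -1.11 (edgeR adjusted p = 0.437). The part of shared reads in the Atg4d counts was not tested.

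Atg4a (chromosome X, 140956907 to 141164270, plus strand) encodes a protease with a preference for the GABARAP branch of the ATG8 family. It had 17.5, 9.10 and 12.05 CPM in the controls and 1.31, 29.5 and 28.2 CPM in the mutants, so that mutant 1 was far below and mutants 2 and 3 above every control. At the mean level of the controls, 59.0 counts would correspond to Atg4a in mutant 1, where 5.93 were deposited. The log2 change was 0.62 (SE 0.88, edgeR adjusted p = 0.778) with all samples. Without mutant 1 it was 1.15 (SE 0.36, unadjusted p = 0.0143, adjusted p = 0.0883, edgeR), and 0.61 when also corrected for length and GC content (unadjusted p = 0.0625, adjusted p = 0.234, edgeR).

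The Atg4a count is uncertain for a further reason, its retrocopy. Atg4a-ps, on chromosome 3 of GRCm38 (103643954 to 103646068, minus strand), is a single-exon copy of the 13-exon Atg4a transcript, annotated as protein coding in GENCODE M21. The transcripts were 99.3% identical over 2115 aligned bases, and 52.0% of the 2128 windows of 75 bases (the read length) in Atg4a occurred unchanged in Atg4a-ps. The coding stretch shown here, bases 106 to 180 of the Atg4a coding sequence, is a window that does tell them apart, with the 3 mismatches in capitals.
Atg4a: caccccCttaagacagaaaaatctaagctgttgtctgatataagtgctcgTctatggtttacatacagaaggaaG
Atg4a-ps: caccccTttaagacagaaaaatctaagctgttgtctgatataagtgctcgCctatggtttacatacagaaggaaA
Of the counts given to either gene, Atg4a-ps held 3.01, 0.00294 and 3.50% in the controls and 60.5, 22.6 and 3.67% in the mutants. The copy thus took a larger share in every mutant than in any control, by little in mutant 3, from 9.07, 100.4 and 10.7 counts in mutants 1, 2 and 3. Summed, the pair had 18.0, 9.10 and 12.5 CPM in the controls and 3.27, 38.0 and 29.3 CPM in the mutants, in the same order relative to the controls as Atg4a alone. The summed log2 change was 0.84 (unadjusted p = 0.296, adjusted p = 0.622, edgeR), a sum chosen after seeing the data.

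**Figure D3:**
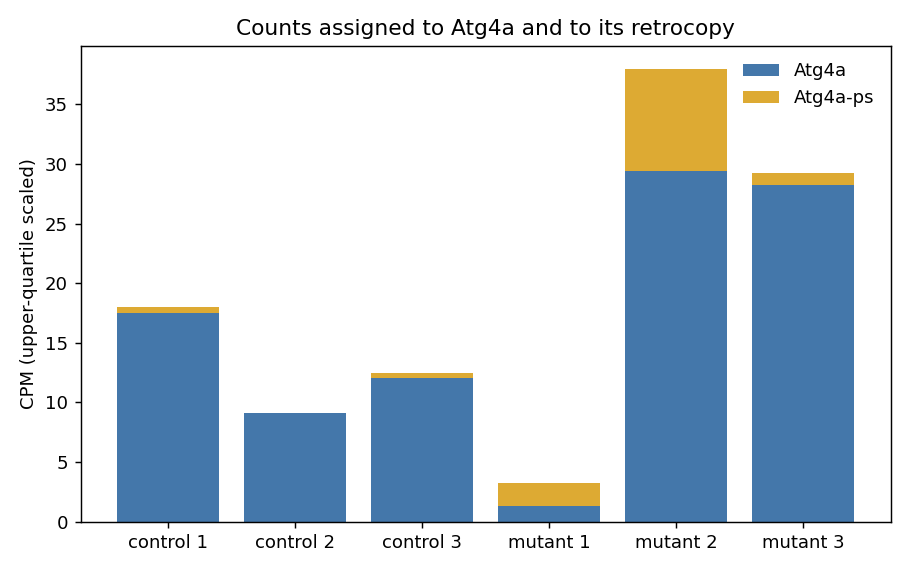
CPM assigned to Atg4a (blue) and to its retrocopy Atg4a-ps (yellow), stacked, in each of the 3 control and 3 mutant samples. The summed bar runs from 3.27 CPM in mutant 1 to 38.0 CPM in mutant 2, and the yellow part is 60.5% of the bar in mutant 1.

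Ratios of genes within a sample do not depend on the scaling between samples. The composition of the ATG4 family was computed from counts per kb of transcript. In the controls Atg4b held 43.4 to 48.9% of it, Atg4a 20.2 to 27.1%, Atg4d 14.5 to 17.3% and Atg4c 13.6 to 17.7%. In the mutants Atg4a held 6.05, 40.6 and 44.1% and Atg4b 48.0, 28.0 and 31.7%, so that Atg4a exceeded Atg4b in mutants 2 and 3, which happened in no control. Atg4c held 30.1, 18.3 and 10.2% and Atg4d 15.9, 13.1 and 14.0%. The groups overlapped for all 4 shares. In two-sided exact permutation tests of 3 samples against 3, for which the smallest p is 0.1, p was 0.6 for Atg4a, 0.3 for Atg4b, 0.6 for Atg4c and 0.4 for Atg4d. The mean shares differed by 7.50 percentage points for Atg4a and by -10.4 for Atg4b, and without mutant 1 by 19.6 and -16.5 points (exact permutation test, p = 0.1 for each, the smallest that 3 samples against 2 allow).

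Relative to its acceptor Atg5, Atg12 was higher in every mutant sample than in every control. The log2 ratio of Atg12 to Atg5 counts was 0.23, 0.62 and 0.32 in the controls and 0.76, 0.69 and 1.00 in the mutants, mutant 1 included. The means differed by 0.43 (exact permutation test, p = 0.1, adjusted p = 0.4 over 8 comparisons), at the smallest p the design allows, and by 0.46 without mutant 1 (exact permutation test, p = 0.2). With the length and GC correction the difference was 0.67 (exact permutation test, p = 0.1). The highest control (0.62) and the lowest mutant (0.69) were closer than the SD of either group (0.21 and 0.17).

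The E2 enzymes also stood apart. The log2 ratio of Atg3 to Atg10 was 1.69, 1.77 and 2.03 in the controls and 1.43, 1.23 and 0.74 in the mutants, again without overlap, and the means differed by -0.70 (exact permutation test, p = 0.1, adjusted p = 0.4), or by -0.85 without mutant 1. After the length and GC correction this difference was -0.062 (exact permutation test, p = 0.7), so it is not separable from the trend with transcript length and GC content. The log2 ratios of Atg16l1 to Atg5 (p = 0.2, exact permutation test) and of Atg7 to Atg3 (p = 0.7, exact permutation test) overlapped. For Atg7 to Atg3 they were 0.21, 0.80 and 0.42 in the controls and 1.45, -0.33 and -0.73 in the mutants, with mutant 1 above and mutants 2 and 3 below all controls. Their means differed by -0.35, and by -1.01 without mutant 1 (exact permutation test, p = 0.1). For Atg16l1 to Atg5 the difference of -2.47 was -0.70 without mutant 1 (exact permutation test, p = 0.4).

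**Figure D4:**
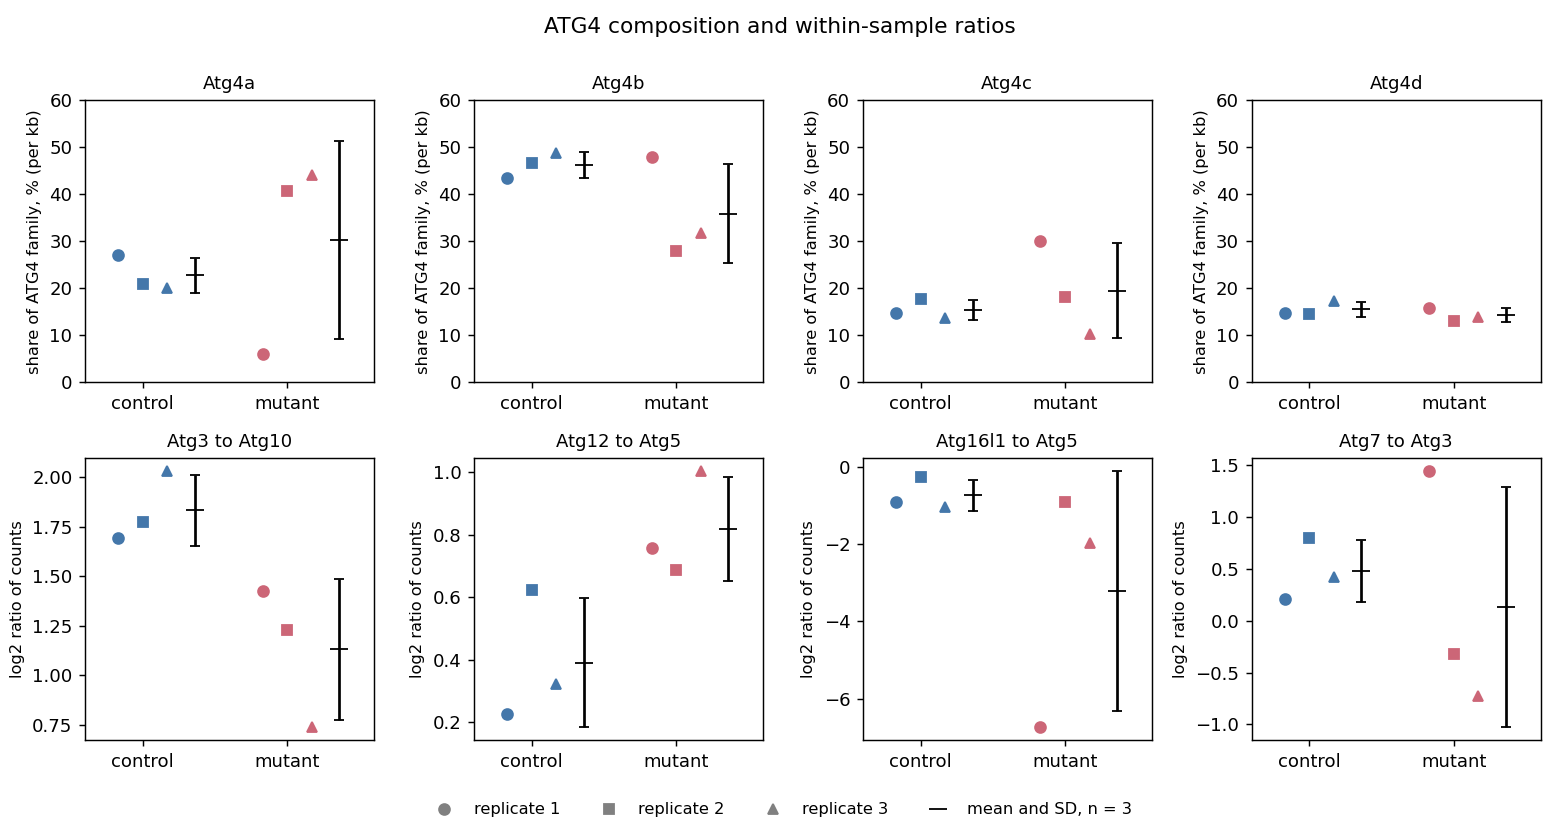
Share of each ATG4 gene in the family's counts per kb (top row, in percent) and log2 ratios between genes of the conjugation reactions (bottom row) in 3 control (blue) and 3 mutant (red) samples, with the mean and SD of each group in black. The groups do not overlap for Atg3 to Atg10 (1.69 to 2.03 in controls, 0.74 to 1.43 in mutants) and for Atg12 to Atg5 (0.23 to 0.62 in controls, 0.69 to 1.00 in mutants).

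Compared per kb of transcript, the E1, an E2, the acceptor and 1 protease had the highest levels in the controls. Atg7 had 12.5 ± 0.403 CPM per kb, Atg5 12.1 ± 4.24, Atg4b 11.7 ± 2.20 and Atg3 11.0 ± 2.12 CPM per kb (SD, n = 3). Then came Atg12 at 7.60 ± 1.75, Atg4a at 5.85 ± 1.93 and Atg16l1 at 5.34 ± 1.03 CPM per kb, and below them Atg10 at 4.06 ± 1.08, Atg4d at 3.96 ± 0.977 and Atg4c at 3.83 ± 0.436 CPM per kb. Neighbours in this order overlapped in every case, while all control values of the highest 4 genes lay above those of Atg16l1, Atg10, Atg4d and Atg4c. In the mutants the means ran from 13.6 ± 7.50 CPM per kb for Atg5 to 3.30 ± 1.53 for Atg4d.

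The mean profile of the 10 genes over the 6 samples, centred log2(CPM + 1), was 0.31, -0.22 and 0.069 in the controls and -1.0, 0.50 and 0.34 in the mutants. Among the members Atg4d lay closest to it (root mean square difference 0.18) and Atg16l1 farthest (1.13). Of 9698 other genes, Ubxn8, Isy1 and Ccdc22 were most like it (0.022, 0.079 and 0.087). Ubxn8, for example, had 38.5, 26.2 and 33.9 CPM in the controls and 15.3, 44.7 and 39.9 CPM in the mutants. This likeness is a description over 6 libraries that differ in depth.

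RefSeq promoter windows (GRCm38.p6, 250 bases before the start) were found for 8 of the 10 genes, all but Atg12 and Atg16l1. CACGTG, an E-box that reads the same on both strands and is bound by MiT/TFE factors, regulators of autophagy and lysosome genes, occurred in 3 of the 10 windows of these genes, against 6.02% of 32851 windows of all genes. Atg3 had a pair of matches, 94 and 71 bases before the start. The window of Atg7 lies within the gene as GENCODE places it, before a RefSeq start downstream of the GENCODE one. The stretches around the matches are shown with the motif in capitals, on the plus strand, because their genes are an E1, an E2 and an acceptor whose levels went different ways in mutants 2 and 3.
Atg3 chr16:45158708-45158790: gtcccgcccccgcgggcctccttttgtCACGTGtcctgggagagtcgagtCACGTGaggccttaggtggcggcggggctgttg
Atg5 chr10:44268298-44268338: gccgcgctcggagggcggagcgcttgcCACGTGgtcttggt
Atg7 chr6:114670937-114670996: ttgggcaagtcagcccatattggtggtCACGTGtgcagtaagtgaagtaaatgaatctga
Atg3 and Atg5 were above all controls in mutants 2 and 3, and Atg7 below them. The forkhead motif GTAAACA, searched on both strands, was in 0 of the members' windows and in 3.17% of all. A match or its absence is a description of these letters alone.

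The proteins that the machinery conjugates were also measured. Of the 5 ATG8 genes, 1 passed the unadjusted threshold, a share near the 19.8% of all genes: Map1lc3a, which encodes an LC3 protein, had 250, 154 and 165 CPM in the controls and 252, 404 and 317 CPM in the mutants. All mutants were above all controls, mutant 1 by little, and the log2 change was 0.77 (edgeR adjusted p = 0.190), or 0.91 without mutant 1. Map1lc3b (0.29), Gabarap (0.33), Gabarapl1 (0.20) and Gabarapl2 (0.42) did not pass, and their groups overlapped. After the length and GC correction Map1lc3a was at 0.71 (unadjusted p = 0.0284, adjusted p = 0.240, edgeR) and the median of the 5 genes went from 0.33 to -0.094.

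In the rest of the autophagy machinery, 33 genes that include the ULK and VPS34 kinase complexes, the lipid transfer proteins and the cargo receptors, 1 rose and 8 fell past the unadjusted threshold, with a median log2 change of -0.26 and 1 gene past an adjusted p of 0.05. Over all genes 10.9% rose, 8.92% fell and 6.79% passed the adjusted threshold. The gene that rose was Fundc1, a mitophagy receptor (0.93, edgeR adjusted p = 0.204). Ncoa4, the receptor for ferritin, had 93.2, 88.1 and 79.0 CPM in the controls and 42.3, 47.9 and 51.3 CPM in the mutants, with every mutant below every control (log2 change -0.88, edgeR adjusted p = 0.0482). The adjusted p of Ncoa4 was over 0.05 without any 1 of the 6 samples (edgeR adjusted p = 0.0683 to 0.192). Without mutant 1 it was 0.0781 (edgeR) at a log2 change of -0.82. It was also over 0.05 with other filters on low counts, thinned control counts and protein-coding genes only (0.0718 to 0.0944, edgeR). With the replicate block it was 0.107 (edgeR). It stayed under 0.05 with TMM (0.0465, edgeR), total counts (0.0432, edgeR), DESeq2 (0.00758) and limma (0.0319). Atg2a, a lipid transfer protein, was at -1.66 (edgeR adjusted p = 0.113), and at -1.49 without mutant 1. The counts depended on single samples and on the correction. They were 1 and 6 without mutant 1 (12.2 and 14.5% of all genes) and 1 and 4 without mutant 2 (11.1 and 16.5%). Without control 2 they were 0 and 1 (8.88 and 5.61%), and without control 3 they were 0 and 2 (7.88 and 4.97%). After the length and GC correction they were 0 and 1 (5.80 and 8.75% of all genes), when Ncoa4 was at -1.05 (edgeR adjusted p = 0.0466) and Fundc1 at -0.65.

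Other ubiquitin-like conjugation systems served as a comparison of the same biochemistry. Of 24 genes, 4 rose and 0 fell past the unadjusted threshold (10.9 and 8.92% of all genes), with a median log2 change of 0.12. Ufm1, a ubiquitin-like modifier, had 68.1, 42.8 and 59.8 CPM in the controls and 96.3, 110.4 and 138 CPM in the mutants, with every mutant above every control (log2 change 1.02, edgeR adjusted p = 0.0582). Without mutant 1 its log2 change was 1.11 (edgeR adjusted p = 0.0596). The direction of the list turned with the length and GC correction, under which 0 rose and 5 fell (5.80 and 8.75% of all genes). Ufm1 was then at 0.51.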

How the data were processed

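Single reads of 75 bases from 3 control and 3 mutant incisors were aligned by the authors to mm10 (GRCm38) in Partek Flow, and the submitters' processing notes name TopHat2 2.0.8. The authors deposited estimated counts per gene, not normalized, after a filter on features that the sources used here do not describe. The counting model, its annotation and its use of strand are not given in the sources used here. A table of the authors' own comparison (p-values and fold changes) was also deposited and was not used.

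These counts, rounded to integers and with upper-quartile scaling, were tested with edgeR 4.0.16 (R 4.3.3): default filter on low counts (minimum 10, total 15), genotype as the only term, two-sided quasi-likelihood test, Benjamini-Hochberg adjustment over all 15826 genes tested. The threshold was the study's, an unadjusted p under 0.05 and over 1.5-fold. Standard errors were derived from the log2 change and its F statistic. Ratios came from counts as deposited plus 0.5, and exact permutation tests over samples were used. A count of 0 allows up to 3 counts, counting error only. The labels do not tie each sample to a separate animal, so p-values measure only the spread between these samples, which may be technical.

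Gene positions and transcripts came from GENCODE M21. Its symbols covered 18637 genes of the table as written and 216 more by synonym, and 207 had no match. On simulated data of 15607 genes for mutant against control, 200 genes were changed by 2 on the log2 scale. At an adjusted p under 0.05 the edgeR test recovered 100% of them, with 16 false calls. The unadjusted threshold with 1.5-fold was not checked in this way. The simulation gave every gene the same spread, not that of these libraries, and its changed genes were not drawn from those of lowest level. It checks that the test runs as intended and does not measure its power for the members.

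The members and lists were chosen with earlier results of these data known. Named genes were the 10 members, Fgfr1, 5 ATG8 genes, the 3 genes nearest the members' mean profile (mean of at least 10 CPM) and, from both other lists, up to 2 risen and 2 fallen genes past the threshold, by smallest p. Of the genes this rule selects, 1 is not reported here. Atg4a-ps, Thap4 and Kri1 were named for shared or overlapping reads. Alternatives were TMM, total counts, DESeq2 1.42.0, limma 3.58.1, other filters, the replicate number as a block, leaving out each sample, a length and GC correction (a smooth trend per sample on both, mgcv 1.9.3), thinned control counts and protein-coding genes only. The summing of Atg4a with Atg4a-ps, and the combinations of leaving out mutant 1 with another scaling or correction, were chosen after seeing the data.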

Additional observations from a re-analysis of the deposited data

How the results depend on the processing

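The count of members past the unadjusted threshold was 0 with all 6 samples under every scaling, tool, filter and correction tried, except with total counts only, when it was 1. Leaving out 1 sample at a time gave from 0 to 3, the 3 without mutant 1, and leaving out mutant 1 together with another choice gave 1 (length and GC correction), 3 (total counts) and 4 (TMM). The median of the members (0.12) turned to -0.11 with total counts, -0.068 with limma and -0.078 with the correction. The median of all genes was then -0.30, -0.31 and -0.11. Without 1 sample the members' median was 0.034 to 0.30. These moves of the members' median change are smaller than 0.60. That value is another quantity, the SD of the members' median log2 level between samples of a group. Mutant 1 widens it, so the comparison does not show that the median change is stable. Of 200 combinations of a member and an alternative, 158 kept their direction and call and 32 turned direction, and 12 passed the threshold, 2 of them (Atg7) with the direction turned. As 0 members passed at first, none could lose the call. The cause of these changes was not tested.

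The main log2 changes of Atg7 (0.063) and Atg4c (0.053) are near 0 and turned easily. Atg7 was -0.041 with TMM, -0.22 with total counts, -0.11 with limma, -0.026 with thinned control counts, -0.60 without mutant 1 (range without 1 sample -0.60 to 0.34), and without mutant 1 -0.34 with the length and GC correction, -0.81 with total counts and -0.69 with TMM. Atg4c was -0.036 with TMM, -0.18 with total counts, -0.030 with limma, -0.019 with thinned counts, -0.27 with the correction, -0.11 with the correction and without mutant 1, -0.011 without control 2 and -0.39 without mutant 2 (range to 0.21). Total counts put Atg3 at -0.0081 and Atg5 at -0.050, and the correction put Atg3 at -0.15, Atg5 at -0.11, Atg10 at -0.049 and Atg4d at 0.11. Atg5 was -0.068 without control 2, -0.10 without mutant 2 and -0.064 without mutant 3 (range to 0.55). Atg4a was -0.25 with limma. Without mutant 1, Atg16l1 was at 0.0015 (range from -1.62) and Atg4d at 0.064, and with the correction as well at 0.29 and 0.36. The difference in family share turned for Atg4a (-1.32 percentage points), Atg4c (-0.69) and Atg4d (4.15) under the correction and for Atg4c (-1.12, range to 8.82) without mutant 1. The log2 ratio of Atg7 to Atg3 turned without mutant 3 (0.084, range from -1.01) and under the correction (0.33). The differences for Atg12 to Atg5 ran from 0.33 to 0.54 and for Atg3 to Atg10 from -0.85 to -0.50 across the comparisons without 1 sample.

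With the replicate block, 0 members and 2743 of all genes were called, and Atg7 was at -0.11, Atg4c at -0.031 and Atg16l1 at -1.33. Deviations from the group means correlated by 0.0472, 0.00937 and 0.0548 between samples of the same number. Each was the highest for its own number, for number 2 by little (0.00937, against 0.00808 between control 2 and mutant 3). All are under 0.1. The paper's methods mention 3 pairs of samples without saying which belong together, and the labels tie nothing to the numbers. The samples are therefore taken to share only a number. The count called in the other autophagy machinery (9) was 1 with the correction, 3 with it and without mutant 1, and 1 to 8 without 1 sample. That of the ATG8 genes (1) was 0 with total counts, with or without mutant 1, and 0 to 2 without 1 sample. Depth limits the low genes: by counting error alone, 0 counts in mutant 1 allow 0.655 CPM, against 0.0825 to 0.0874 CPM in the controls.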
